A study of Mus musculus with 2 samples.

Results

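The genes of the circadian clock were followed through the anterior eye segment of mice that lacked Foxc2 in the neural crest. The 10 genes were Nr1d1, Nr1d2, Per1, Per2, Per3, Ciart, Dbp, Tef, Arntl and Cry1, each taken by its symbol from the gene list of both count matrices, out of 32285 genes in all. Each symbol had a single row. The question was whether their levels were shifted between the libraries in the same direction in every cell type, as a difference in the hour of collection would shift them. The genes were chosen by their CPM ratios between these libraries as well as by their place in the clock, so the ratios below are a description and no test is given.

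The NC-Foxc2-/- library came from mice with floxed Foxc2 on both alleles and Wnt1-Cre, a Cre driver of the neural crest and its descendants, and only animals with a moderate eye phenotype were taken. The control library came from mice with the same floxed alleles and no Cre. Mice of both libraries were 4 weeks old by their labels, of mixed strain, and held on a light and dark cycle. Tissue of several mice was pooled into 1 library per condition, so no spread between mice can be given. In the study's list of changed genes, a trabecular meshwork cluster had more Xist, an RNA of female cells, and less of the Y-linked Ddx3y in NC-Foxc2-/-. The mix of sexes may thus differ between the libraries. Genotype, hour of collection, handling, sex and the choice of mice cannot be told apart. No source used here gives the hour of collection.

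After removal of cells with over 8% mitochondrial counts, the NC-Foxc2-/- library held 10872 cells with a median of 6517 UMIs (unique molecular identifiers, each of which counts 1 captured RNA molecule), and the control library held 10773 cells with a median of 7663 UMIs. The libraries shared 52 cell barcodes. Foxc2 itself had 119 UMIs (7.98 CPM, UMIs of a gene per 1000000 UMIs of its class) in the meshwork cells of the NC-Foxc2-/- library and 764 UMIs (45.3 CPM) in those of the control library, a ratio of 0.18. Cells fell into 16 classes with at least 50 cells in each library. TM-1, TM-2 and TM-3 (trabecular meshwork), uveal meshwork and fibroblasts carry the study's own cluster names. The blood endothelial class pools the study's blood endothelial clusters, BEC-1 to BEC-6, with its endothelial cluster of 22 cells specific to NC-Foxc2-/- mice. The other classes were rebuilt and named by marker genes. A cluster led by Pmel, Dct and Tyrp1 also had Ttr, Rgr and Rlbp1, genes of the retinal pigment epithelium, among its leading genes, and is called Pmel-led cells. Levels are given as CPM and ratios as NC-Foxc2-/- over control. The 95% intervals (exact Poisson for CPM, exact binomial for ratios) cover counting error only.

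The clock is a loop of transcription factors that runs in nearly every cell of the body and keeps time within the day. CLOCK and its partner BMAL1, the product of Arntl, switch on the Per, Cry, Nr1d and Dbp genes through short DNA motifs called E-boxes, and the PER and CRY proteins then shut CLOCK and BMAL1 off. NR1D1 and NR1D2 (REV-ERB alpha and beta) repress Arntl, Cry1 and Nfil3 through a second motif, the RORE, while DBP and TEF act on a further motif, the D-box. In mouse tissues Nr1d1 and Dbp peak within hours of each other in daytime, and Arntl peaks in nearly the opposite phase. In the eye, intraocular pressure follows a daily rhythm.

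Promoter sequences (250 bases before to 50 after the start site, RefSeq, GRCm38.p6) were found for 9 of the 10 genes, in 12 windows. The motifs were searched on both strands. The E-box was spelled CACGTG and an E-box-like motif CACGTT. The D-box was spelled TTATGNAA, and the core of the RORE was TAGGTCA. Of 32851 promoter windows of all genes, 7.15% hold an E-box, 4.68% the E-box-like motif, 3.38% a D-box and 2.61% the RORE core. An E-box was found in windows of 4 of the 9 genes (Per1, Tef, Ciart and Cry1), a D-box in those of 2 (Per1 and Per3), and the RORE core in that of 1 (Arntl). A match is a description of the letters and not of a bound site. The 4 windows below belong to the gene with the most pairs higher among the 10 (Nr1d1), to Cry1 and Nfil3, which lay below control in most classes, and to Ciart, which holds 3 E-boxes. Capitals mark the motifs, none of which overlap in these windows. The RORE core of Nfil3 and the E-box-like motifs of Nr1d1 and Cry1 lie on the opposite strand to the one printed. They begin 28 bases before the start site in Nr1d1 (chr11:98775328-98775627, minus strand), 79 and 60 bases before it in Cry1 (chr10:85185005-85185304, minus strand), 12 bases before it in Nfil3 (chr13:52980990-52981289, minus strand), and 116, 58 and 44 bases before it in Ciart (chr3:95882179-95882478, minus strand).
Nr1d1: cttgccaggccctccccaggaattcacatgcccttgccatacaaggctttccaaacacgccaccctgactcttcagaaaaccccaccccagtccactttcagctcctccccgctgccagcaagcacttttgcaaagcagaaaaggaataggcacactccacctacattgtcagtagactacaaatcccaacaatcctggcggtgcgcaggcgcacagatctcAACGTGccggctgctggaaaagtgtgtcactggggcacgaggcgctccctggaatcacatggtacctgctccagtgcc
Cry1: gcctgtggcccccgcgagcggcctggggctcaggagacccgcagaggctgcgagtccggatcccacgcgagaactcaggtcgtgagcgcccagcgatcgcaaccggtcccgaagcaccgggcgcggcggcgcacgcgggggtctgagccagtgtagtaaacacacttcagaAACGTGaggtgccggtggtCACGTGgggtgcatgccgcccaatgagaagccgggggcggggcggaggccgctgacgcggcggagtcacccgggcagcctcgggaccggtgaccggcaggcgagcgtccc
Nfil3: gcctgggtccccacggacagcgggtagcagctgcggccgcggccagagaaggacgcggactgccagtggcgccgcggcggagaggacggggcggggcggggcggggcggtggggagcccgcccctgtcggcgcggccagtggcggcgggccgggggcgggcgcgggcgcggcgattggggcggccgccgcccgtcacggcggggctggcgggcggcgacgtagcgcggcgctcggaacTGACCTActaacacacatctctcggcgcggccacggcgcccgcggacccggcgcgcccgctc
Ciart: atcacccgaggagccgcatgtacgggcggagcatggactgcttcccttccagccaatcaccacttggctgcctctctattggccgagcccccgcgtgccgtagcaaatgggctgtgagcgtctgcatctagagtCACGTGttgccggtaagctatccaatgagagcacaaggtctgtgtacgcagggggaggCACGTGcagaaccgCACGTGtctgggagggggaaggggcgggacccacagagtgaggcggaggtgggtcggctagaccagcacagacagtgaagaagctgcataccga

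Read gene by gene over the classes, the shifts ran mostly in 1 direction for some genes and were mixed for others. Genes that peak at different hours need not share a direction. Nr1d1 lay above control in 15 of 16 classes and Nr1d2 in 13 of 14, Cry1 lay below control in 11 of 12, and Dbp lay above control in 4 classes and below in 9 (3 and 10 after division by the median ratio of all genes in a class). A gene was counted as measured in a class with at least 100 UMIs over both libraries, and as higher or lower past a 1.5-fold ratio. Of 160 pairs of gene and class, 95 were measured. Of these 17 were higher in NC-Foxc2-/- (17.9%, against 9.21% of 93386 pairs over all genes), and 7 were lower (7.37%, against 10.4% over all genes). Nr1d1 gave 9 of the 17 higher pairs. Without Nr1d1, 8 of 79 pairs were higher (10.1%) and 7 were lower (8.86%), both near the shares of all genes.

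Of the 6 genes measured in at least 8 classes (Nr1d1, Nr1d2, Per1, Dbp, Tef and Cry1), 0 stood on the same side of 1 in every measured class, against 16.8% of 5910 genes measured as widely. Nr1d1, Nr1d2 and Cry1 did so in all classes but 1, which makes 3 of 6 against 35.2% of those 5910 genes. With so few genes that count is not read as a difference from all genes, and with every cell given the same weight it was 0 of 6. The median ratio of all measured genes lay between 0.91 and 1.17 over the classes. It was 1.17 in skeletal muscle-like, 0.91 in Pmel-led and 0.92 in limbal epithelial-like cells, and dividing by it left the number of classes above 1 at 15 for Nr1d1 and 13 for Nr1d2. For Cry1 it left 10 of 12 below 1.

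**Figure D1:**
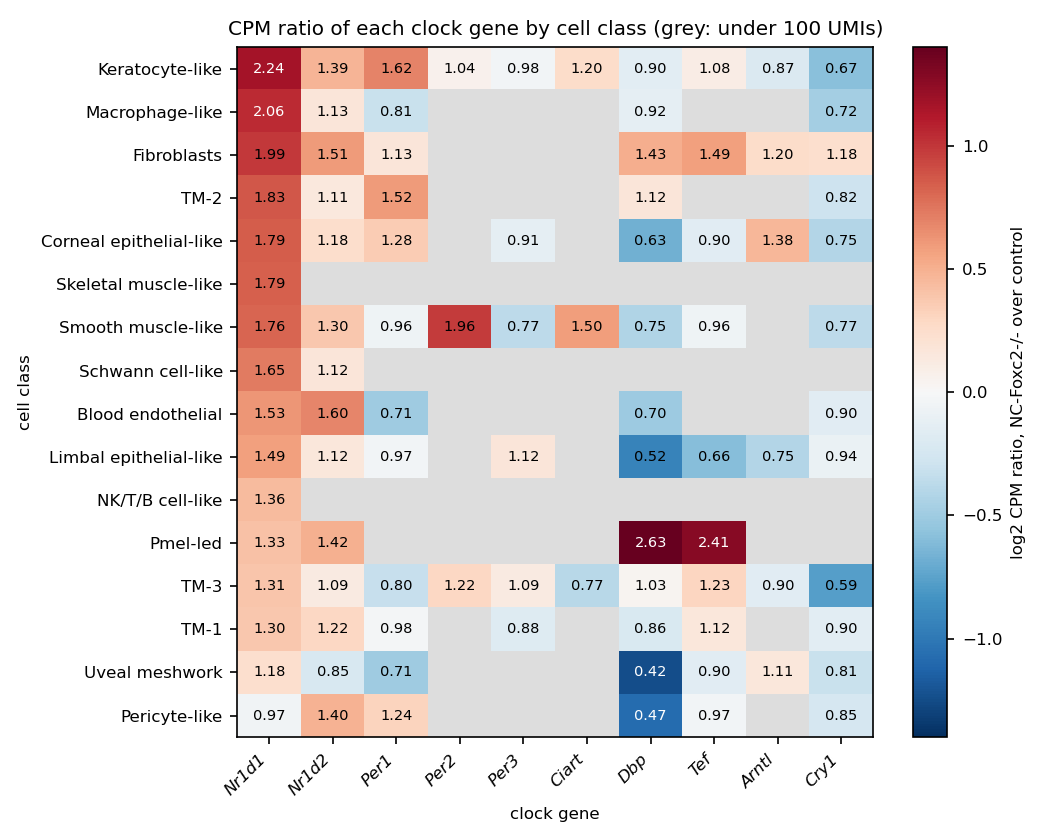
CPM ratio of each clock gene (columns) in each cell class (rows), NC-Foxc2-/- over control, with the ratio printed in the cell and its log2 as colour (red above 1, blue below, grey where fewer than 100 UMIs were counted). Nr1d1 is red in 15 of 16 rows and Cry1 blue in 11 of 12, while Dbp runs from 2.63 in Pmel-led cells to 0.42 in uveal meshwork.

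Nr1d1 (ENSMUSG00000020889, chr11:98767932-98775333, minus strand, GRCm38) encodes REV-ERB alpha, the repressor of the loop's second arm. Its CPM was 152 (95% interval 149 to 156) in NC-Foxc2-/- and 68.1 (65.2 to 71.1) in control keratocyte-like cells, the corneal stroma class, which held 36.6% of its UMIs. That ratio, 2.24 (2.13 to 2.35), was the highest of the 16 classes. In macrophage-like cells Nr1d1 stood at 61.4 CPM in NC-Foxc2-/- and 29.9 CPM in control (ratio 2.06), and in fibroblasts at 172 and 86.4 CPM (ratio 1.99). Corneal epithelial-like cells had 145 CPM in NC-Foxc2-/- and 80.6 CPM in control (ratio 1.79, 1.65 to 1.95).

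In the meshwork the ratios were spread. Nr1d1 had a ratio of 1.83 (1.43 to 2.36) in TM-2, with 180 CPM in NC-Foxc2-/- and 98.1 CPM in control. In TM-3 it had 250 CPM in NC-Foxc2-/- and 190 CPM in control, a ratio of 1.31 (1.22 to 1.41), and in TM-1 184 and 142 CPM, a ratio of 1.30 (1.15 to 1.47). Uveal meshwork had 233 CPM in NC-Foxc2-/- and 198 CPM in control, a ratio of 1.18 (1.08 to 1.29). These intervals of TM-1, TM-3 and uveal meshwork lie below that of keratocyte-like cells. The difference between classes was not tested, for want of replicate libraries.

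Pericyte-like cells were the exception. Nr1d1 was at 137 CPM (123 to 152) there in NC-Foxc2-/- and at 141 CPM (124 to 161) in control, a ratio of 0.97 (0.82 to 1.15). The remaining ratios were 1.79 in skeletal muscle-like, 1.76 in smooth muscle-like, 1.65 in Schwann cell-like, 1.53 in blood endothelial, 1.49 in limbal epithelial-like, 1.36 in NK/T/B cell-like and 1.33 in Pmel-led cells. The interval reached 1 in pericyte-like, NK/T/B cell-like and Pmel-led cells. Thinned to 1000 UMIs a cell, blood endothelial cells gave 0.75 from 40 UMIs. With every cell given the same weight, Pmel-led cells turned to 0.72 and macrophage-like cells to 2.97. In the Pmel-led class 15 of 56 NC-Foxc2-/- and 52 of 178 control cells had a UMI. Schlemm's canal and lymphatic endothelial, conjunctival epithelial-like and corneal endothelial-like cells were left out with 23, 21 and 9 NC-Foxc2-/- cells. Their ratios were 1.91, 2.14 and 1.84.

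**Figure D2:**
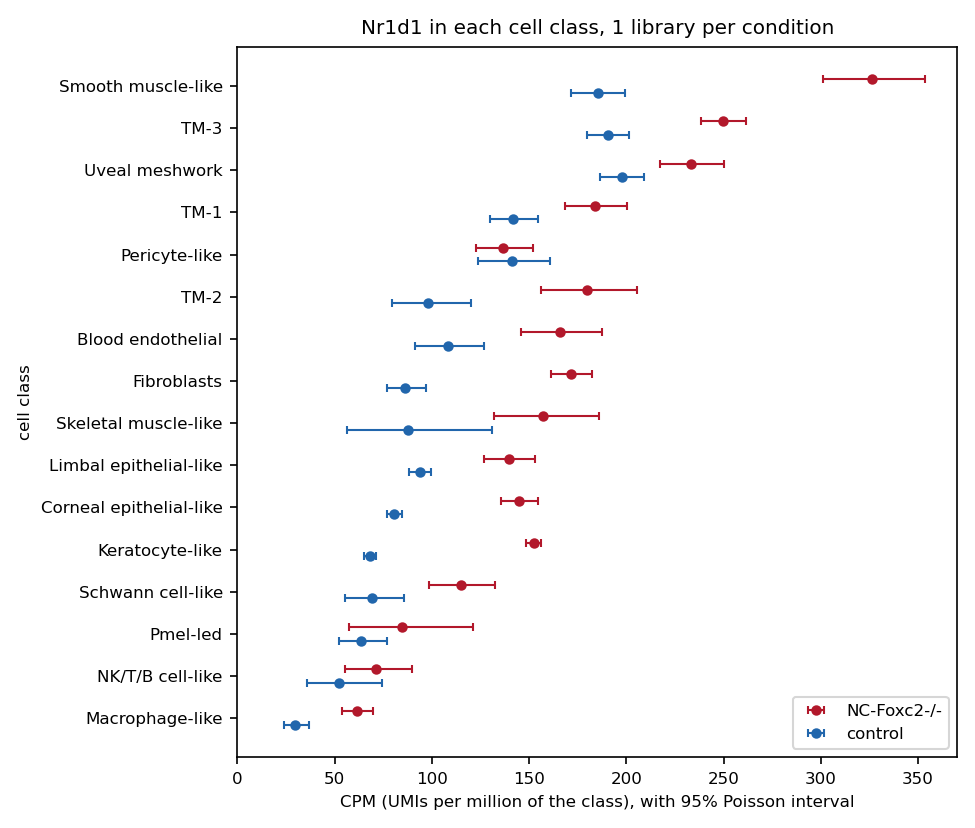
Nr1d1 level in each of the 16 cell classes, in CPM, with NC-Foxc2-/- (red) above control (blue), 1 library each, and bars for the 95% Poisson interval. The red point lies right of the blue point in 15 classes, with pericyte-like cells (137 and 141 CPM) as the exception.

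The order of the classes by Nr1d1 level was much the same in both libraries (Spearman's rho 0.84 over 16 classes, which share the library and its depth). On the mean of both libraries smooth muscle-like cells led, with 326 CPM in NC-Foxc2-/- and 185 CPM in control, followed by TM-3 and uveal meshwork, and macrophage-like cells came last. In control alone these first classes were within each other's intervals, and uveal meshwork was highest at 198 CPM. TM-3 and uveal meshwork, neighbours in that order, had overlapping intervals in both libraries, 239 to 261 and 218 to 250 CPM in NC-Foxc2-/- against 180 to 202 and 186 to 209 CPM in control. Free RNA was low beside these levels. Erythrocyte-like cells, which should hold almost no clock RNA, had 7 Nr1d1 UMIs in 647 NC-Foxc2-/- cells and 4 in 975 control cells, or 0.0068 per cell. The lowest class had 0.18 per cell, 25.8 times as much.

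The tail of Nr1d1 overlaps that of Thra, a thyroid hormone receptor gene on the opposite strand, by 1075 bases. No source used here says whether strand was used in counting. Thra was measured in 14 classes with ratios of 0.70 to 1.33 and a median of 1.06, and 0 of them passed 1.5-fold.

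Nr1d2 (ENSMUSG00000021775, chr14:18204054-18239127, minus strand), the close relative REV-ERB beta, was shifted in the same direction and by less. Its median ratio over 14 classes was 1.203, against 1.59 over 16 classes for Nr1d1. Blood endothelial cells had 87.1 CPM in NC-Foxc2-/- and 54.4 CPM in control (ratio 1.60, 1.197 to 2.15), and fibroblasts 95.7 and 63.5 CPM (ratio 1.51, 1.28 to 1.77). Only these 2 classes were higher. With the meshwork, fibroblast and endothelial clusters rebuilt, 0 of 13 classes were higher, and with called doublets left out 1 of 14 was. Keratocyte-like cells had 53.6 CPM in NC-Foxc2-/- and 38.7 CPM in control (ratio 1.39, 1.29 to 1.49). Here pericyte-like cells were not an exception, with 102 CPM in NC-Foxc2-/- and 73.1 CPM in control (ratio 1.397, 1.12 to 1.75). Uveal meshwork alone lay below control, at 73.0 CPM in NC-Foxc2-/- and 85.5 CPM in control (ratio 0.85, 0.73 to 0.99). TM-2, with 131 CPM in NC-Foxc2-/- and 119 CPM in control, had the highest mean level of all classes, with an interval that overlapped that of smooth muscle-like cells in both libraries.

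The Per genes encode the proteins that, with the CRYs, close the main loop. Per1 (ENSMUSG00000020893, chr11:69095217-69109960, plus strand), which also responds quickly to outside signals, was split. It was higher in keratocyte-like cells, with 19.9 CPM in NC-Foxc2-/- and 12.3 CPM in control (ratio 1.62, 1.43 to 1.83), and in TM-2, with 87.7 and 57.8 CPM (ratio 1.52, 1.08 to 2.14). In uveal meshwork it had 64.3 CPM in NC-Foxc2-/- and 90.9 CPM in control (ratio 0.71, 0.60 to 0.83), and in blood endothelial cells 43.6 and 61.7 CPM (ratio 0.71, 0.50 to 0.98). With the meshwork, fibroblast and endothelial clusters rebuilt, the blood endothelial ratio was 1.01. There each rebuilt cluster takes a single name, and Schlemm's canal and lymphatic endothelial cells are no longer split from blood endothelial cells. In all, 5 of 12 classes lay above 1 and 7 below, and the split became 7 above and 5 below after division by the median ratio of all genes. On the mean of both libraries Per1 was highest in pericyte-like cells, at 117 CPM in NC-Foxc2-/- and 94.4 CPM in control.

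Per2 and Per3 were sparse. Per2 (ENSMUSG00000055866, chr1:91415982-91459324, minus strand) reached 100 UMIs in 3 classes. In smooth muscle-like cells it had 30.8 CPM in NC-Foxc2-/- and 15.7 CPM in control (ratio 1.96, 1.34 to 2.88, from 57 and 59 UMIs). Keratocyte-like cells, with 827 UMIs in NC-Foxc2-/- and 557 in control, gave 19.1 and 18.3 CPM (ratio 1.04, 0.94 to 1.16), so the larger shift rests on the smaller count. Per3 (ENSMUSG00000028957, chr4:151003652-151044665, minus strand) had ratios of 0.77 to 1.12 in 6 classes, and the interval included 1 in all 6. It lies within Camta1 on the same strand, and Camta1 had ratios of 1.05 to 1.85 in 12 classes.

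Ciart (ENSMUSG00000038550, chr3:95878503-95882251, minus strand) encodes CHRONO, a repressor of CLOCK and BMAL1, and its window above carries 3 E-boxes. It had 27.5 CPM in NC-Foxc2-/- and 18.3 CPM in control smooth muscle-like cells (ratio 1.503, 1.03 to 2.19) and 12.0 and 9.97 CPM in keratocyte-like cells (ratio 1.199, 1.04 to 1.39). In TM-3 it had 12.3 CPM in NC-Foxc2-/- and 16.1 CPM in control (ratio 0.77, 0.57 to 1.03). Thinning to 1000 UMIs a cell gave 0.96 in smooth muscle-like cells, from 19 UMIs. An antisense gene, C920021L13Rik, covers most of Ciart and had 428 UMIs in all kept cells.

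Dbp (ENSMUSG00000059824, chr7:45705088-45710203, plus strand), an output factor of the loop that acts on D-boxes, showed the widest span of ratios among the 10 genes. It was lower in uveal meshwork, with 28.7 CPM (23.3 to 34.9) in NC-Foxc2-/- and 67.6 CPM (61.1 to 74.6) in control, a ratio of 0.42 (0.34 to 0.53). Pericyte-like cells had 33.4 CPM in NC-Foxc2-/- and 70.7 CPM in control (ratio 0.47, 0.35 to 0.63). Both epithelial classes were lower too. Limbal epithelial-like cells had 25.1 CPM in NC-Foxc2-/- and 48.0 CPM in control (ratio 0.52, 0.41 to 0.66), and corneal epithelial-like cells 34.7 and 55.4 CPM (ratio 0.63, 0.54 to 0.72). Thinned to 1000 UMIs a cell, the limbal class gave 1.36 from 34 UMIs.

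Blood endothelial and smooth muscle-like cells also lay below control without passing 1.5-fold. The blood endothelial class had 74.1 CPM in NC-Foxc2-/- and 105 CPM in control (ratio 0.70, 0.55 to 0.91). With the meshwork, fibroblast and endothelial clusters rebuilt, and Schlemm's canal and lymphatic endothelial cells no longer set apart, that ratio was 1.11. In the remaining classes Dbp ran from just below control to well above it. Keratocyte-like cells, with 3248 UMIs in NC-Foxc2-/- and 2528 in control, had 74.8 and 82.9 CPM (ratio 0.90, 0.86 to 0.95). TM-3 had 61.3 CPM in NC-Foxc2-/- and 59.6 CPM in control (ratio 1.03, 0.90 to 1.18). Fibroblasts had 61.0 CPM in NC-Foxc2-/- and 42.8 CPM in control (ratio 1.43, 1.17 to 1.75). Pmel-led cells had 249 CPM (199 to 306) in NC-Foxc2-/- and 94.5 CPM (80.4 to 110) in control, a ratio of 2.63 (2.00 to 3.44), from 88 UMIs in 56 cells and 159 UMIs in 178 cells. In that class 6 of the 9 immediate early genes, which answer handling and other stimuli, were higher as well. Of all 3076 genes measured there, 13.9% were higher and 24.6% lower. The part of the immediate early genes in the result was not tested. Without the skeletal muscle-like, Pmel-led and limbal epithelial-like classes, where cells were few, shallow or often called doublets, Dbp was higher in 0 and lower in 3 of 11 classes.

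Dbp and Nr1d1 thus moved apart in several classes. In uveal meshwork Nr1d1 had a ratio of 1.18 and Dbp 0.42, in corneal epithelial-like cells 1.79 and 0.63, and in smooth muscle-like cells 1.76 and 0.75. In pericyte-like cells, where Nr1d1 had a ratio of 0.97, Dbp had 0.47. Among the 16 classes, the highest Dbp level of the control library was in smooth muscle-like cells, with 207 CPM in NC-Foxc2-/- and 277 CPM in control (ratio 0.75, 0.66 to 0.84). The end of Dbp overlaps Sphk2 on the opposite strand by 737 bases, and Sphk2 was measured in 4 classes with ratios of 0.67 to 0.98. Erythrocyte-like cells had 1 Dbp UMI in 647 NC-Foxc2-/- cells and 6 in 975 control cells.

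Tef (ENSMUSG00000022389, chr15:81802421-81826863, plus strand), a second factor of the D-box, lay above control in 5 classes and below in 5. It had 96.1 CPM in NC-Foxc2-/- and 39.8 CPM in control Pmel-led cells (ratio 2.41, 1.55 to 3.70, from 34 and 67 UMIs), and 33.2 and 22.3 CPM in fibroblasts (ratio 1.49, 1.14 to 1.97). It was lower in limbal epithelial-like cells, with 14.9 CPM in NC-Foxc2-/- and 22.5 CPM in control (ratio 0.66, 0.48 to 0.90). In the other 7 measured classes the ratio lay between 0.90 and 1.23. In Pmel-led, limbal epithelial-like and fibroblast cells Tef thus stood on the same side of 1 as Dbp. In uveal meshwork both lay below 1, but Tef had a ratio of 0.90 (0.71 to 1.13) beside 0.42 for Dbp.

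Arntl and Cry1 peak later than Nr1d1 in most mouse tissues. Arntl (ENSMUSG00000055116, chr7:113207465-113314126, plus strand) encodes BMAL1, the activator, and passed 1.5-fold in 0 of 6 classes. It had 40.0 CPM in NC-Foxc2-/- and 46.1 CPM in control keratocyte-like cells (ratio 0.87, 0.81 to 0.93), and 36.9 and 41.1 CPM in TM-3 (ratio 0.90, 0.76 to 1.07). Corneal epithelial-like cells went the other way, with 19.3 CPM in NC-Foxc2-/- and 14.0 CPM in control (ratio 1.38, 1.10 to 1.71), which became 1.98 with every cell given the same weight. So 3 of the 6 classes lay above 1 and 3 below.

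Cry1 (ENSMUSG00000020038, chr10:85131700-85185064, minus strand), the cryptochrome whose protein represses CLOCK and BMAL1, was, of the 10 genes, the one with the most classes below control (11 of 12, and 10 of 12 after division by the median ratio of all genes, where Dbp had 10 of 13). TM-3 had 37.0 CPM (32.8 to 41.7) in NC-Foxc2-/- and 63.1 CPM (57.0 to 69.7) in control, a ratio of 0.59 (0.50 to 0.69). Keratocyte-like cells had 36.6 CPM in NC-Foxc2-/- and 54.9 CPM in control, a ratio of 0.67 (0.62 to 0.71) that stands just inside the limit of a lower call. Corneal epithelial-like, macrophage-like, smooth muscle-like and uveal meshwork cells had ratios of 0.75, 0.72, 0.77 and 0.81, each with an interval below 1. In pericyte-like, TM-1, TM-2, blood endothelial and limbal epithelial-like cells the ratio was 0.82 to 0.94 and the interval included 1. Fibroblasts were the exception, with 32.4 CPM in NC-Foxc2-/- and 27.4 CPM in control (ratio 1.18, 0.92 to 1.53).

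The classes differed in how their clock genes stood together. In fibroblasts all 7 measured genes lay above 1, with ratios of 1.13 to 1.99, and Arntl (1.199) and Cry1 (1.18) were among them, whereas 49.2% of all 7371 genes measured in fibroblasts lay above 1. In uveal meshwork 5 of 7 lay below 1 (all genes: 55.9% above), and in limbal epithelial-like cells 5 of 8 (all genes: 38.8% above). In keratocyte-like cells, the class with the most UMIs, all 10 genes were measured, 6 lay above 1 and 4 below. These counts cover genes that share a library and are not independent.

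Over the whole library the ratios partly followed the mix of cells. Per2 had a ratio of 1.56 over all kept cells but 1.10 when every class had the same weight in both libraries, and Arntl had 1.26 and 0.96. The weighted values cover only the 16 classes, so cells outside them are part of the difference too. Keratocyte-like cells, 2934 in NC-Foxc2-/- and 1860 in control, held 66.1% of the Per2 and 57.2% of the Arntl UMIs of the 16 classes. For Nr1d1 the mix made little difference, with 1.74 over all kept cells and 1.71 at the same weights, and for Cry1 the values were 0.80 and 0.73.

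Of the 21 other genes of the clock pathway, taken from a list, 202 of 336 pairs were measured, of which 29 were higher (14.4%) and 16 lower (7.92%), beside 9.21% and 10.4% of the pairs of all genes. Of the 15 genes measured in at least 8 classes, 1 stood on the same side of 1 in every class and 6 did so in all but at most 1. Of 5910 genes measured as widely, 16.8% and 35.2% did so. Bhlhe41 and Bhlhe40, which encode the E-box repressors DEC2 and DEC1, were higher in 6 classes each. Bhlhe41 lay above 1 in 11 of 11 classes, with 67.0 CPM in NC-Foxc2-/- and 38.9 CPM in control TM-1 (ratio 1.72, 1.38 to 2.15) and 140 and 85.4 CPM in keratocyte-like cells (ratio 1.64, 1.57 to 1.72). Bhlhe40 lay above 1 in 15 of 16 classes, with 148 CPM in NC-Foxc2-/- and 76.3 CPM in control keratocyte-like cells (ratio 1.94, 1.85 to 2.04), and had 0.91 in NK/T/B cell-like cells. Fbxw11, part of a ligase that marks PER proteins for breakdown, lay above 1 in 11 of 12 classes and was higher in 3, and Nampt, an enzyme of NAD synthesis under clock control, was higher in 3 and lower in 1 of 15.

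Nfil3 (E4BP4), the repressor that competes with DBP and TEF at the D-box and is itself repressed by REV-ERB, lay below 1 in 14 of 15 classes and was lower in 8. TM-3 had 59.9 CPM in NC-Foxc2-/- and 142 CPM in control (ratio 0.42, 0.38 to 0.47), limbal epithelial-like cells 26.0 and 65.0 CPM (ratio 0.40, 0.32 to 0.50), and smooth muscle-like cells 114 and 226 CPM (ratio 0.50, 0.43 to 0.59). In keratocyte-like cells, where Nr1d1 had its highest ratio, Nfil3 had 10.3 CPM in NC-Foxc2-/- and 13.9 CPM in control (ratio 0.74, 0.65 to 0.85). Pericyte-like cells, where Nr1d1 had a ratio of 0.97, had 169 CPM of Nfil3 in NC-Foxc2-/- and 262 CPM in control (ratio 0.64, 0.56 to 0.74). Blood endothelial cells alone lay above 1, with 81.3 CPM in NC-Foxc2-/- and 69.0 CPM in control (ratio 1.18, 0.90 to 1.56).

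**Figure D3:**
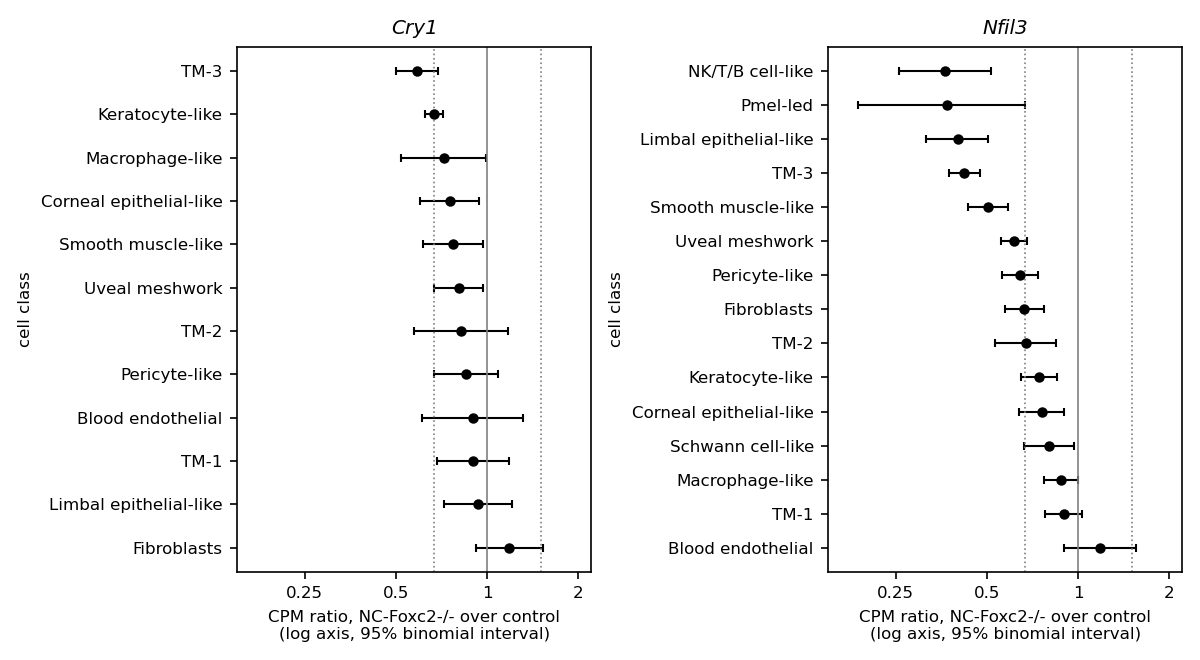
CPM ratio of Cry1 (left, 12 classes) and Nfil3 (right, 15 classes), NC-Foxc2-/- over control, on a log axis with 95% binomial intervals; dotted lines mark 1.5-fold. Cry1 lies below 1 in all classes but fibroblasts (1.18), Nfil3 in all but blood endothelial cells (1.18).

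Other genes of the list, Rora, Btrc and Timeless, followed Nfil3 in the number of lower classes. Rora, whose product activates at the RORE where REV-ERB represses, was lower in 2 of 16 classes, with 130 CPM in NC-Foxc2-/- and 239 CPM in control pericyte-like cells (ratio 0.54, 0.47 to 0.63). Btrc, which marks PER proteins for breakdown, was lower in 2 of 5, with 11.3 CPM in NC-Foxc2-/- and 21.1 CPM in control uveal meshwork (ratio 0.54, 0.36 to 0.77). Timeless was lower in 1 of 2, with 21.7 CPM in NC-Foxc2-/- and 37.8 CPM in control pericyte-like cells (ratio 0.57, 0.39 to 0.84). Clock itself, named after its values were seen, lay above 1 in 11 of 12 classes, with 47.1 CPM in NC-Foxc2-/- and 30.04 CPM in control TM-3 (ratio 1.57, 1.31 to 1.88).

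Genes that move with handling or hormones were read beside the clock. Of 80 pairs of 5 heat shock genes, 22 were higher (27.5%) and 7 lower (8.75%), beside 9.21% and 10.4% of the pairs of all genes. The list was split. Hspa1a was higher in 10 of 16 classes, Hspa1b in 7 and Hsph1 in 5, while Hspa8 and Dnajb1 were higher in 0 and lower in 3 each. Of 143 pairs of 9 immediate early genes, 18 were higher (12.6%) and 19 lower (13.3%). Of 70 pairs of 6 glucocorticoid-induced genes, 8 were higher (11.4%) and 5 lower (7.14%), so that these lists stood nearer to all genes than the heat shock genes did in higher pairs. Within that list Fkbp5, a gene strongly induced by glucocorticoids, was higher in 5 of 8 classes, with a median ratio of 1.94, while Tsc22d3, another, passed 1.5-fold in 0 of 13. Of the 5 heat shock genes, 0 were higher in pericyte-like, NK/T/B cell-like, Pmel-led, Schwann cell-like, smooth muscle-like and macrophage-like cells. Nr1d1 had ratios of 0.97, 1.36, 1.33, 1.65, 1.76 and 2.06 in these classes. In each of the other classes 1 to 3 of the 5 were higher. The part of these lists in the shift of the clock genes was not tested.

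A small unnamed cluster stood out in both libraries. It held 104 NC-Foxc2-/- and 78 control cells. Its leading genes were Hspa1a, Ccnb1ip1, Hspa1b, Snai1, Prr32, Tnfsf8, Klf2, Gm266, Pou3f3 and Fos. The marker list that matched it best was that of the lens, with 0 of 4 markers detected, so it took no name. It carried the stromal genes Kera, Lum and Dcn at 0.98 to 1.396 times the level of keratocyte-like cells. Only these stromal genes were compared. Clock genes were not used to build the cluster. Dbp had 327 CPM in the cluster and 74.8 CPM in keratocyte-like cells of the NC-Foxc2-/- library (4.36 times), and 412 and 82.9 CPM in the control library (4.97 times). Per3 was 2.95 times as high in NC-Foxc2-/- and 3.89 times in control, Tef 2.29 and 2.41 times, Nr1d1 2.00 and 2.46 times, and Per1 1.75 and 3.51 times. Nr1d2 was at 1.36 times in NC-Foxc2-/- and 1.62 times in control, and Ciart at 1.06 and 1.505 times, with intervals that included 1 for Ciart.

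Arntl and Per2 ran the other way in the same cells. Per2 was at 0.43 times (0.21 to 0.77) in NC-Foxc2-/- and 0.77 times (0.43 to 1.28) in control, from 11 and 15 UMIs in the cluster. Arntl had 14.1 CPM in the cluster and 40.0 CPM in keratocyte-like cells of the NC-Foxc2-/- library (0.35 times, 0.21 to 0.55), and 4.69 and 46.1 CPM in the control library (0.10 times, 0.033 to 0.24, from 5 UMIs in the cluster). Cry1 was at 0.75 times in NC-Foxc2-/- and 0.56 times in control. Fos was 20.6 times as high in the cluster in each library and Hspa1a 23.8 and 32.5 times, and their part in the levels of the clock genes was not tested.

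**Figure D4:**
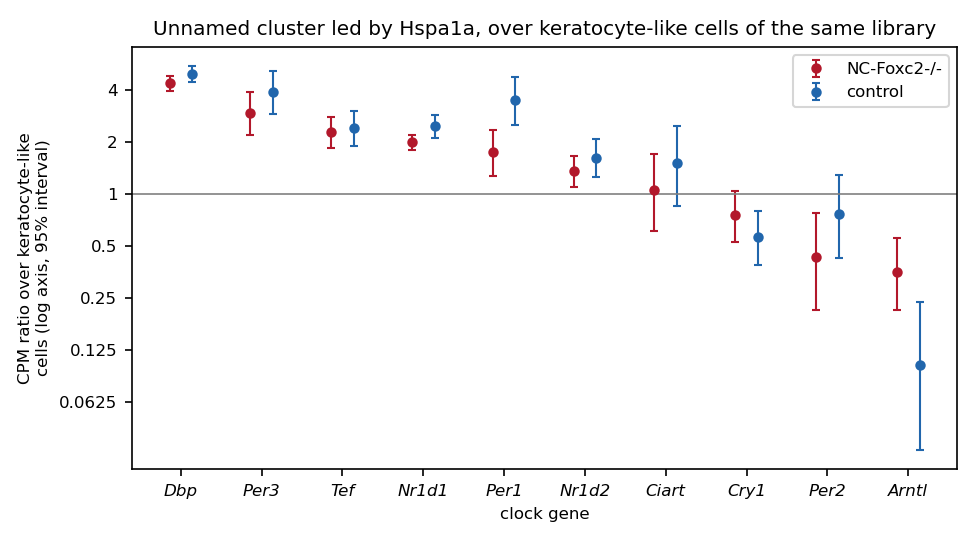
CPM of each clock gene in the unnamed cluster led by Hspa1a over its CPM in keratocyte-like cells of the same library, on a log axis, with NC-Foxc2-/- (red, 104 cells) left of control (blue, 78 cells) and 95% binomial intervals. Dbp, Per3, Tef, Nr1d1, Per1, Nr1d2 and Ciart lie above 1 in both libraries, Ciart with intervals that include 1, and Cry1, Per2 and Arntl lie below 1 in both.

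The genes whose ratios ran most like those of Nr1d1 over the 16 classes, among 1215 genes measured in all of them, were Slc3a2 (Pearson's r 0.88), Atp6ap2 (0.76), Maff (0.71), Hspa5 (0.70) and Gm47283 (0.68). Nr1d1 was the only one of the 10 genes measured in all 16 classes. The likeness is in the order of the classes and not in the direction, since Slc3a2, a subunit of amino acid transporters, lay below 1 in 16 of 16 classes with ratios of 0.52 to 0.94. The 16 points share their libraries, and the 5 genes are the highest of many.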

How the data were processed

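Single cells of the anterior eye segment were sequenced with a 10x 3' kit, 1 library of pooled tissue per condition. The counts of UMIs per gene and cell barcode were deposited by the authors, from Cell Ranger 4.0.0 on mm10. Neither the annotation release nor the use of strand is named in those sources. A joint count table of both libraries, also deposited, equals these counts for 19197 of 19217 genes and served for the filter on cells and, through its totals, for the normalization used in matching names.

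Cells with at most 8% mitochondrial counts were kept, as in the study. Cells of the study's meshwork, fibroblast and endothelial clusters were matched to the barcodes by the values behind its plots (98.5 to 100% of a cluster), and no result was taken from those values. All kept cells were clustered with scanpy 1.11.5 and leidenalg 0.10.2 (variable genes without the clock genes, 15 principal components, 25 neighbours, resolution 0.8). Matched cells took their class from the study, and the other cells from their cluster. A cluster was named from its markers where at least 3 were detected, 1 was among its 10 leading genes and at most 50% of its cells were called doublets. Of 26 clusters, 20 were named. The 509 NC-Foxc2-/- and 422 control cells called doublets were kept, and were left out in an alternative.

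UMIs were summed by class and library and given as counts per 1000000 UMIs of the class (CPM). With 1 library per condition no test was made. A gene was measured in a class at 100 UMIs over both libraries and called at 1.5-fold, and classes needed 50 cells in each library, a limit set after the data were seen. The rule was tried on simulated counts that had counting error only and changes well past 1.5-fold. That trial does not show how calls near the limit, or differences between mice, behave. The genes and lists were chosen with earlier results of these data known. Named pathway genes were those past 1.5-fold in the most classes, at most 4 in each direction, with ties broken by the median log2 ratio. Scaling, thinning, weighting, doublets, filters, clustering and thresholds were varied. Gene positions are from the GENCODE annotation of GRCm38.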

Additional observations from a re-analysis of the deposited data

Results flagged for a closer look

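Dbp and Tef were past 1.5-fold in opposite directions in different classes. Dbp had a CPM ratio, NC-Foxc2-/- over control, of 2.63 (2.00 to 3.44) in Pmel-led cells and of 0.42 (0.34 to 0.53) in uveal meshwork. Tef had a ratio of 2.41 (1.55 to 3.70) in Pmel-led cells and of 0.66 (0.48 to 0.90) in limbal epithelial-like cells. With 1 library per condition the difference between classes was not tested. The Pmel-led class held 56 NC-Foxc2-/- cells.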

How the results depend on the processing

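Outside the thinning, 13 alternatives gave 1194 ratios of single genes in single classes. Of these 1179 stayed within the counting interval of the value reported, 15 moved out of it and 0 of the called pairs turned round. The limits of 50 and 200 UMIs and the classes left out cannot change a ratio, so their 95, 95 and 82 values stayed by design. Under the thinning 45 ratios stayed, 41 moved out of the interval and 3 turned round. The main counts were 17 pairs higher, 7 lower and 0 genes on the same side in every class. Thinning every cell to 1000 UMIs left 21 pairs with enough UMIs, of which 6 were higher (28.6%) and 0 lower. Of 63 pairs of the other pathway genes, 13 were higher and 6 lower. Of the pairs of all genes, 9.54% were higher and 9.72% lower. Among pairs below 100 UMIs after thinning, Nr1d1 turned to 0.75 in blood endothelial cells (40 UMIs), Dbp to 1.36 in limbal epithelial-like cells (34 UMIs) and Ciart to 0.96 in smooth muscle-like cells (19 UMIs). With rebuilt meshwork, fibroblast and endothelial clusters, 1 of 6 genes (Nr1d1, 15 of 15 classes) was on the same side throughout, against 17.6% of all genes measured as widely. Lower pairs numbered 3 of 80 at resolution 0.4 (3.75%, all genes 9.91%) and 15 of 124 at a minimum of 50 UMIs (12.1%, all genes 11.9%). At a minimum of 200 UMIs 10 of 161 pairs of the other pathway genes were lower, beside 9.19% for all genes. At a fold of 2, 4 of 95 pairs were higher (4.21%, all genes 2.44%) and 2 lower (2.11%, all genes 2.56%). Of 202 pairs of the other pathway genes, 4 were higher and 7 lower. Division by the median ratio of all genes gave 20 higher pairs (21.1%, all genes 9.52%) and 5 lower (5.26%, all genes 9.65%). An alternative without the skeletal muscle-like, Pmel-led and limbal epithelial-like classes was added after the data were seen. It gave 14 higher pairs (17.1%, all genes 9.02%) and 5 lower (6.1%, all genes 9.08%). No paired analysis was possible because each condition had 1 library. The lack of replicate libraries limits every comparison, and Per2, Per3 and Ciart are limited by their depth.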
